A study of Mus musculus with 17 samples.

Results

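The E proteins encoded by Tcf3, Tcf4 and Tcf12 and the Id inhibitors encoded by Id2 and Id3 were described by the chromatin accessibility of the regions at their genes in mouse nB (naive B cells), GCB (germinal center B cells) and BMPC (bone marrow plasma cells). A region belonged to a gene when the deposited annotation gave that gene as its nearest transcript or as its nearest transcription start, without regard to its signal. This rule took 116 of the 66177 accessible regions of the series, of which 6 were at Tcf3, 42 at Tcf4, 24 at Tcf12, 31 at Id2 and 13 at Id3. The 2 symbols differed for 3 of the 116 regions, and nearness does not show which gene a region acts on.

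Accessibility was measured by ATAC-seq, in which the Tn5 transposase inserts sequencing adapters into open chromatin. The Dnmt3-deficient (KO) cells came from Dnmt3a fl/fl Dnmt3b fl/fl mice with a Cre allele that is active in B lineage cells and removes the DNA methyltransferase genes Dnmt3a and Dnmt3b. The Dnmt3-sufficient (C) cells came from mice that carried the same floxed alleles without Cre, so that the presence of Cre went together with the KO genotype. All mice were adults of a mixed B6;129S4 background. The nB (B220+ Fas- GL7-) were sorted from the lymph nodes of mice that had not been immunized. The GCB (B220+ Fas+ GL7+ PE+) were sorted from lymph nodes and the BMPC (CD138+) from bone marrow, in both cases 30 days after immunization with phycoerythrin (PE) in adjuvant, so that GCB but not nB or BMPC were selected for binding of the antigen. The 16 libraries comprised 3 C and 2 KO nB, 2 C and 4 KO GCB and 3 C and 2 KO BMPC libraries. Each GCB library was a pool of mice. The nB mice were all male and the BMPC mice all female, while GCB came from both sexes, so that cell type, tissue, immunization and sex cannot be told apart in the comparison of nB with BMPC. Between nB and GCB, cell type went together with immunization, selection for the antigen, pooling and in part sex. Between GCB and BMPC it went together with tissue, selection for the antigen, pooling and in part sex. These cannot be told apart either.

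E proteins are basic helix-loop-helix transcription factors that pair with each other and bind E-box sequences in DNA. Tcf3 encodes E12 and E47, Tcf4 encodes E2-2 and Tcf12 encodes HEB, and B cell development, germinal center responses and antibody secretion are known to depend on members of the family. Id proteins have the helix-loop-helix part but no DNA-binding part, so that an E protein paired with Id2 or Id3 cannot bind DNA. The amounts of E protein and Id protein are therefore usually considered together.

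Values are given as RPPM, the reads in a region per 1000000 reads that fell in all accessible regions of that library. Total reads in regions were 4104875 to 6079018 in nB, 907959 to 2280954 in GCB and 5357687 to 8232313 in BMPC, so that 3 reads were worth 0.364 to 0.731 RPPM in nB and BMPC libraries and 1.32 to 3.30 RPPM in GCB libraries. Groups were compared by limma, fitted to log2(RPPM + 1) of the 66177 regions together. A region was called when its adjusted p (Benjamini-Hochberg) was at most 0.01 and its log2 difference at least 1 in size. The largest rises and falls were ranked on this scale, and not by the ratio of means. The p-values measure only the spread between libraries within groups, pooled over the 6 groups. Those for GCB thus also rest on the spread of the deeper nB and BMPC libraries. In sorted bulk cells, fewer cells with an open region and less opening per cell cannot be told apart.

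E-boxes, which are the sites that the encoded E proteins bind, were counted in these regions and in all regions. The shares with CAGCTG and CANNTG were near those of all regions, and the share with CACCTG was higher. These differences were not tested. In the central 200 bases, the E-box CAGCTG was found in 20 of the 116 regions (17.2%), against 14.9% of the 65893 regions of the series that could be read from the genome. The E-box CACCTG, which reads CAGGTG on the other strand, was found in 32 of the 116 (27.6%), against 19.6%. The general form CANNTG, which includes both, was found in 80 of the 116 (69.0%), against 66.7%. Among the genes, CAGCTG was found in 10 of 31 Id2 regions, 3 of 13 Id3 regions, 5 of 42 Tcf4 regions, 2 of 24 Tcf12 regions and 0 of 6 Tcf3 regions, and CACCTG in 10, 5, 8, 6 and 3 of them. These matches describe letters in a window and not binding. The central 200 bases of 5 regions at Tcf3, Tcf12, Id2 and Id3 that rose or fell in BMPC, described below, are printed for the mm9 assembly, + strand, with the E-boxes CAGCTG and CACCTG (either strand) in capitals. The Tcf3 window held 1 such site and the Id3 window 2, and the Id2 window and both Tcf12 windows held 0.
Tcf3 upstream region, high in nB, chr10:79905869-79906068: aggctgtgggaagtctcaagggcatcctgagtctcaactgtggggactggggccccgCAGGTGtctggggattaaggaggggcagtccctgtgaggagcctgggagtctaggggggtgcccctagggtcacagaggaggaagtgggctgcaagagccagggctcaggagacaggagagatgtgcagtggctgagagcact
Tcf12 intronic region, high in BMPC, chr9:71862678-71862877: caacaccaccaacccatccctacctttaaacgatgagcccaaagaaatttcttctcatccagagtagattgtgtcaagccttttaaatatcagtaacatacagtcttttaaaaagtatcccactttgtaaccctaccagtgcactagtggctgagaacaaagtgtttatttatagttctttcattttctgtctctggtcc
Tcf12 intronic region, low in BMPC, chr9:71934832-71935031: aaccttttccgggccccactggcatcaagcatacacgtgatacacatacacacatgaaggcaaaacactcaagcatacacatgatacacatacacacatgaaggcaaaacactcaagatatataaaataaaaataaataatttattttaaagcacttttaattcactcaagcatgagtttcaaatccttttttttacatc
Id2 distal region, low in BMPC, chr12:25901629-25901828: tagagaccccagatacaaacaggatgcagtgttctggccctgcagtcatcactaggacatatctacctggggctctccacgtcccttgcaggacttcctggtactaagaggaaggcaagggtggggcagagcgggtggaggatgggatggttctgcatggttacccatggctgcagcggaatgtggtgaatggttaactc
Id3 upstream region, low in BMPC, chr4:135683542-135683741: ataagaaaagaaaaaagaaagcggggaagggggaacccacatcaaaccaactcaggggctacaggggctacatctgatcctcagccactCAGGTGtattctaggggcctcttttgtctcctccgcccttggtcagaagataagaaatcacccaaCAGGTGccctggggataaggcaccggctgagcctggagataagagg

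Accessibility at the Id inhibitor genes was lower in BMPC than in GCB at many regions, while the E protein genes changed in both directions. Between C GCB and C BMPC, 21 of the 44 Id2 and Id3 regions (47.7%) were lower in BMPC and 1 was higher, against 19.1% lower and 11.3% higher among all regions. Their median log2 difference was -1.06, against -0.06 over all regions. Of the 72 E protein regions, 8 were lower and 9 higher in the same comparison, with a median of 0.18. The number of lower Id inhibitor regions was 13 without C GCB replicate 1, where the share of all regions is not given here. With a pseudocount of 5 RPPM the number was 5 of 44, against 6071 of all 66177 regions. The Id inhibitor regions were thus near the background at that setting. With quantile normalization it was 16, against 14.9% of all regions.

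From C nB to C GCB, 19 of the 116 regions (16.4%) were higher and 6 (5.17%) lower, against 14.2% and 8.47% of all regions. The higher regions were 11 at Tcf4, 5 at Id2, 2 at Id3 and 1 at Tcf12, and the lower ones were 2 at Tcf4, 2 at Tcf12, 1 at Tcf3 and 1 at Id3. From C nB to C BMPC, 25 regions (21.6%) were higher and 23 (19.8%) lower, against 18% and 20.1% of all regions, so that the set as a whole stayed near the background. The split by gene was uneven. Tcf4 had 13 higher and 5 lower regions, Tcf12 6 and 3, Id2 5 and 10, Id3 1 and 4, and Tcf3 0 and 1. From C GCB to C BMPC, 10 regions (8.62%) were higher and 29 (25%) lower. The lower regions were 14 at Id2, 7 at Id3, 6 at Tcf4, 1 at Tcf12 and 1 at Tcf3. The 3 comparisons share libraries, so their counts are not independent. In all, 63 regions (54.3%) were called in at least 1 of them, against 51.8% of all regions, and 53 in none.

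**Figure D1:**
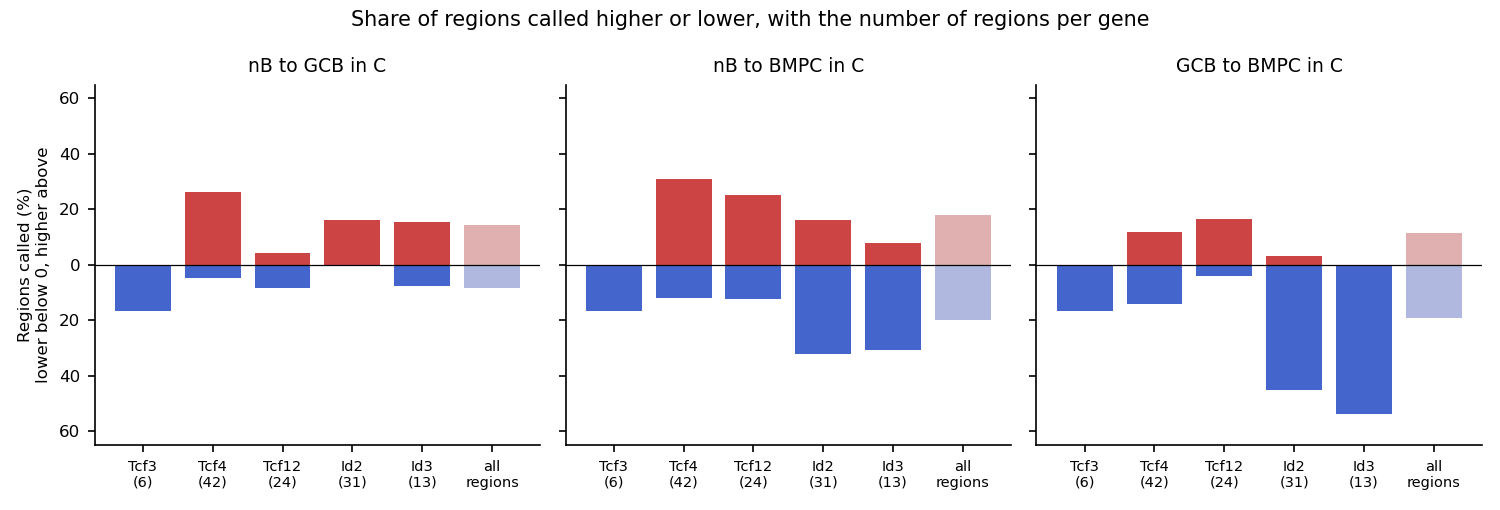
Share of regions (vertical axis, percent) called higher (red, above 0) or lower (blue, below 0) at each gene in the 3 comparisons between C cell types, with the share of all regions in pale bars at the right; the number of regions per gene is in brackets. At Id2 and Id3 the bars below 0 are longest from GCB to BMPC, where 21 of 44 regions were lower, and at Tcf4 the bars above 0 are longest from nB to GCB and nB to BMPC, with 11 and 13 of 42 regions.

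The share of higher against lower calls depended on scaling in some comparisons. From C GCB to C BMPC, 25.6% of the called regions were higher (10 of 39), against 38.2% with quantile normalization (13 of 34), and from KO nB to KO GCB 81.5% (22 of 27) against 60.9% with quantile normalization and 70% with TMM scaling. Over all regions, quantile normalization moved the median log2 difference by -0.11 from C nB to C GCB, -0.19 from KO nB to KO GCB, 0.14 from C GCB to C BMPC and 0.12 from KO GCB to KO BMPC.

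Tcf3, which encodes E12 and E47, held the most open promoter region of the 5 genes per unit length in C nB and C BMPC. Its promoter region (chr10:79896123-79897187, promoter, 5′ UTR and exon) had 102, 58.0 and 89.3 RPPM per kb in C nB, GCB and BMPC. Tcf3, Id2 and Id3 have 1 region at an annotated promoter each, Tcf12 has 2 and Tcf4 has 5, and the genes were set in order by the most open of these in each cell type. In C nB the order was Tcf3 (100.4 to 103 RPPM per kb over libraries), Id3 (77.3 to 83.4), Tcf4 (63.2 to 81.3), Id2 (52.1 to 70.0) and Tcf12 (38.7 to 47.6), where Tcf4 overlapped both Id3 and Id2. In C GCB the promoters of Tcf3 (54.5 to 61.6) and Tcf4 (45.9 to 69.0) overlapped each other and those of Id3 (56.4 to 73.0) and Id2 (42.5 to 55.1). Id3 and Id2 did not overlap, and the promoter of Tcf12 was lower (16.1 to 18.0). In C BMPC the order was Tcf3 (84.1 to 97.4), Tcf4 (55.6 to 63.7), Id2 (54.5 to 60.6), Tcf12 (35.0 to 38.7) and Id3 (27.0 to 31.9), and only Tcf4 and Id2 overlapped.

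The Tcf3 promoter region was at 107, 108 and 110 RPPM in the C nB libraries, 58.1 and 65.6 in the C GCB libraries and 104, 92.1 and 89.5 in the C BMPC libraries. Both C GCB libraries were below the other C libraries, and nB and BMPC libraries lay side by side without mixing. The difference from nB to GCB was -0.80 (log2, SE 0.11, limma with Benjamini-Hochberg adjusted p = 8.7e-07), which passed the p limit but not the limit of size. In KO cells the same difference was -1.04 (SE 0.10, limma adjusted p = 3.6e-09), which passed both. From GCB to BMPC the difference was 0.61 (SE 0.11, limma adjusted p = 2.4e-05) in C cells, also under the limit of size.

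The 1 Tcf3 region called between C cell types lay 9.3 kb upstream of the start, outside genes (chr10:79905698-79906238). It held 9.01, 9.42 and 10.4 RPPM in C nB, 3.96 and 2.81 in C GCB and 0.780, 0.365 and 0.779 in C BMPC. The 3 cell types did not overlap, with nB highest and BMPC lowest. It fell by 1.29 on the log2 scale from nB to GCB (SE 0.34, limma adjusted p = 0.0029), by 1.42 from GCB to BMPC (SE 0.34, limma adjusted p = 0.0009) and by 2.70 from nB to BMPC (SE 0.30, limma adjusted p = 1.3e-08), where the mean was 15.0-fold lower. The first of these calls was lost without C nB replicate 3 (limma adjusted p = 0.013), without C GCB replicate 2 (0.045) and with a pseudocount of 0.1 RPPM (0.013), and the second without C GCB replicate 1 (0.021) and with quantile normalization (0.019). The KO libraries showed 13.5 and 12.2 RPPM in nB, 3.30, 4.46, 3.95 and 9.79 in GCB and 1.21 and 0.933 in BMPC, again without overlap, and all 3 falls were called. The 4 other Tcf3 regions were called in no comparison.

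**Figure D2:**
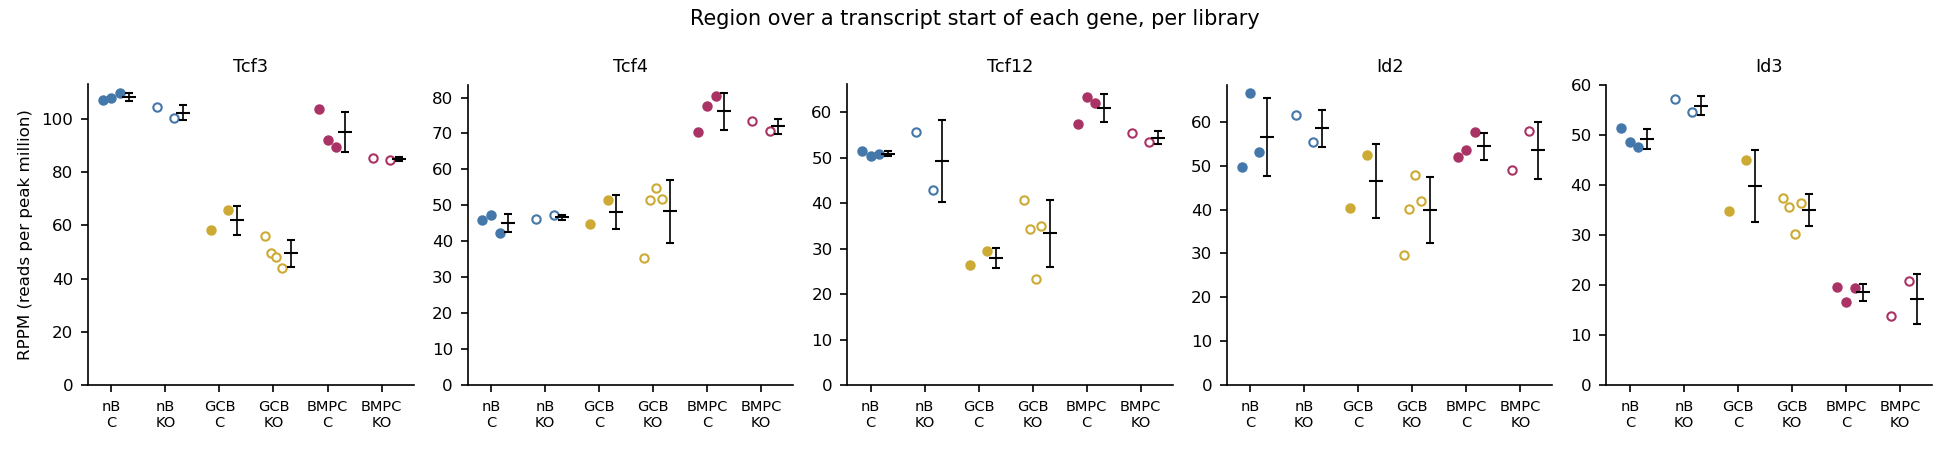
RPPM (vertical axis, from 0) of the region over a transcript start of each gene (for Tcf4 an internal start) in every library, with C libraries as filled and KO libraries as open circles and the mean and SD of each group as black bars. The Tcf3 start region is lowest in GCB, the region at the internal Tcf4 start is highest in BMPC, and the Id3 start region is lowest in BMPC, at 16.6 to 19.6 RPPM in C libraries.

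Tcf4, which encodes E2-2, a factor known for its part in plasmacytoid dendritic cells and in the germinal center and plasma cell stages, has the most regions of the 5 genes. Of its 42 regions, 22 (52.4%) were called in at least 1 comparison between C cell types, near the 51.8% of all regions. Among these 22, the most common course was a rise from nB to GCB that was kept in BMPC: 5 regions were higher in GCB and BMPC than in nB without a called difference between GCB and BMPC, and 2 more rose at both steps. Another 4 regions were higher in GCB than in both other cell types. A further 3 were higher in BMPC than in both others, without a called difference between nB and GCB. Summed over all 42 regions, Tcf4 held 402 ± 28.8 (SD, n = 3) RPPM in C nB, 498 ± 12.9 (n = 2) in C GCB and 546 ± 20.5 (n = 3) in C BMPC, and the libraries of nB did not overlap those of GCB or BMPC.

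The largest rise at Tcf4 was at an intronic region 12.9 kb past a transcript start (chr18:69766015-69766890). It held 1.46, 1.32 and 1.12 RPPM in C nB, 33.0 and 34.7 in C GCB and 21.7, 32.7 and 31.0 in C BMPC. Every GCB and BMPC library was above 20 RPPM and every nB library below 2, and GCB and BMPC lay close together. The region rose by 3.92 on the log2 scale from nB to GCB (SE 0.24, limma adjusted p = 1.1e-12), a ratio of means of 26.0, and by 3.66 from nB to BMPC (SE 0.22, limma adjusted p = 7.5e-14). The KO cells had 1.48 and 1.38 RPPM in nB, 17.6, 34.4, 30.3 and 35.0 in GCB and 23.9 and 24.8 in BMPC. The lowest KO GCB value came from replicate 1, the library with the fewest reads.

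An intronic Tcf4 region 121 kb before the nearest start (chr18:69631602-69632186) was open mainly in GCB. C nB libraries held 4.14, 4.52 and 5.77 RPPM, C GCB libraries 19.4 and 15.5, and C BMPC libraries 0.650, 0.912 and 1.09. GCB was highest and BMPC lowest, and no 2 cell types overlapped. The rise from nB to GCB was 1.67 (SE 0.28, limma adjusted p = 2.1e-05), and the region then fell by 3.29 from GCB to BMPC (SE 0.28, limma adjusted p = 1.6e-10), the largest fall at Tcf4 in that comparison. KO libraries held 4.13 to 5.43 RPPM in nB, 14.3 to 19.1 in GCB and 1.12 to 2.19 in BMPC.

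The other Tcf4 regions picked by size of change showed 3 further courses. The region chr18:69642028-69642747, in an intron 110 kb before the nearest start, had 9.75 ± 1.48 RPPM (SD, n = 3) in C nB, 5.19 ± 1.37 (n = 2) in C GCB and 0.433 ± 0.236 (n = 3) in C BMPC, and it fell by 2.91 from nB to BMPC (SE 0.28, limma adjusted p = 8.7e-10). The region chr18:69524954-69525445, also intronic, had 5.93 ± 1.35, 1.36 ± 0.0606 and 0.763 ± 0.483 RPPM and fell by 1.53 from nB to GCB (SE 0.35, limma adjusted p = 0.00094). This call was lost without C GCB replicate 1 (limma adjusted p = 0.011), and each C GCB library held only 3 reads there. The region chr18:69665890-69666074, intronic and 87.0 kb before the nearest start, had 0.555 ± 0.177, 0.454 ± 0.0202 and 3.76 ± 0.704 RPPM and rose by 1.70 from GCB to BMPC (SE 0.35, limma adjusted p = 0.00022). DESeq2 on the recovered reads did not call that rise (adjusted p = 0.013). The values in GCB lie below 3 reads per library there.

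The Tcf4 promoters differed among themselves. The region at the first annotated start (chr18:69503703-69504469, promoter, 5′ UTR and exon), added after its values were seen, held 55.5 ± 6.94 RPPM (SD, n = 3) in C nB, 44.1 ± 12.5 (n = 2) in C GCB and 45.2 ± 3.25 (n = 3) in C BMPC. It was called in no comparison, and the libraries of C GCB overlapped those of nB and BMPC. An internal start region 248.5 kb further along the gene (chr18:69751915-69753376, promoter, 5′ UTR, exon and intron) held 45.2 ± 2.49 RPPM (SD, n = 3) in C nB, 48.2 ± 4.71 (n = 2) in C GCB and 76.1 ± 5.18 (n = 3) in C BMPC. The BMPC libraries were above all nB and GCB libraries, with a difference from nB of 0.74 (log2, SE 0.13, limma adjusted p = 1.5e-05) that stayed under the limit of size. A second promoter region, 1.31 kb before that start (chr18:69751162-69751768), held 11.2 ± 2.47, 25.8 ± 5.32 and 28.6 ± 2.21 RPPM. It rose by 1.14 from nB to GCB (SE 0.18, limma adjusted p = 1.3e-05) and by 1.30 from nB to BMPC (SE 0.16, limma adjusted p = 1.2e-07), and the first difference was 0.97 without C nB replicate 1 and 0.93 without C GCB replicate 2, under the limit of size. In KO cells the 2 differences were 0.81 and 0.66 and were not called. The Tcf4 region with the highest signal, an intronic one 68.6 kb past the start (chr18:69821660-69823307), held 73.2 ± 3.28, 74.2 ± 8.89 and 60.5 ± 3.08 RPPM and was not called.

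Tcf12, which encodes HEB, a partner of E2A proteins in lymphocyte development, had 24 regions. Of these, 6 (25%) were higher and 3 (12.5%) lower in C BMPC than in C nB, against 18% and 20.1% of all regions, and 3 were higher in BMPC than in both other cell types. The largest rise was in an intron 95.7 kb past a start (chr9:71862295-71863259). C nB libraries held 3.65, 1.88 and 1.67 RPPM there, C GCB libraries 4.40 and 4.68, and C BMPC libraries 20.7, 26.1 and 25.1. The BMPC libraries were far above all others, and the GCB libraries were just above the highest nB library. The region rose by 2.91 from nB to BMPC (SE 0.36, limma adjusted p = 6.9e-08), a ratio of means of 9.96, and by 2.16 from GCB to BMPC (SE 0.40, limma adjusted p = 5.0e-05). KO libraries held 1.81 and 2.16 RPPM in nB, 6.61, 0.636, 2.19 and 4.19 in GCB and 21.7 and 19.4 in BMPC, where GCB spread around the nB values and BMPC stood apart.

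A shorter intronic Tcf12 region 12.7 kb past a start (chr9:71945893-71946307) had 1.72 ± 0.508 RPPM (SD, n = 3) in C nB, 1.14 ± 0.372 (n = 2) in C GCB and 8.62 ± 1.07 (n = 3) in C BMPC and rose by 2.17 from GCB to BMPC (SE 0.32, limma adjusted p = 2.1e-06). The C GCB libraries held only 2 and 3 reads there. The region chr9:71823728-71824318, intronic and 79.8 kb before the nearest start, was highest in GCB, at 2.46 ± 0.520, 13.2 ± 0.586 and 7.27 ± 1.16 RPPM, and rose by 2.05 from nB to GCB (SE 0.25, limma adjusted p = 1.8e-07). The largest fall was at chr9:71934763-71935100, an intronic region 23.9 kb past a start. Its 3 C nB libraries held 6.58, 6.41 and 6.51 RPPM, its C GCB libraries 4.84 and 5.62, and its C BMPC libraries 0.130, 0.547 and 0. Reads there were thus almost absent in BMPC, and the fall of 2.64 from nB to BMPC (SE 0.30, limma adjusted p = 1.9e-08) is on the log2(RPPM + 1) scale.

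Tcf12 has 2 regions at annotated promoters. The one at the start of the long transcripts (chr9:71958503-71960139) held 50.8 ± 0.551 RPPM (SD, n = 3) in C nB, 28.0 ± 2.21 (n = 2) in C GCB and 60.9 ± 3.13 (n = 3) in C BMPC. GCB was lowest without overlap, and the region rose by 1.10 from GCB to BMPC (SE 0.16, limma adjusted p = 2.3e-06), a call that was lost with quantile normalization (0.82, adjusted p = 0.00028). The other promoter region, within the gene (chr9:71743680-71744493), held 38.7, 31.5 and 38.2 RPPM in C nB, 12.8 and 10.3 in C GCB and 23.1, 19.7 and 29.4 in C BMPC. It fell by 1.57 from nB to GCB (SE 0.20, limma adjusted p = 3.2e-07), the largest fall at Tcf12 in that comparison. In KO cells this difference was -0.93 (SE 0.19, limma adjusted p = 0.00017) and was not called.

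**Figure D3:**
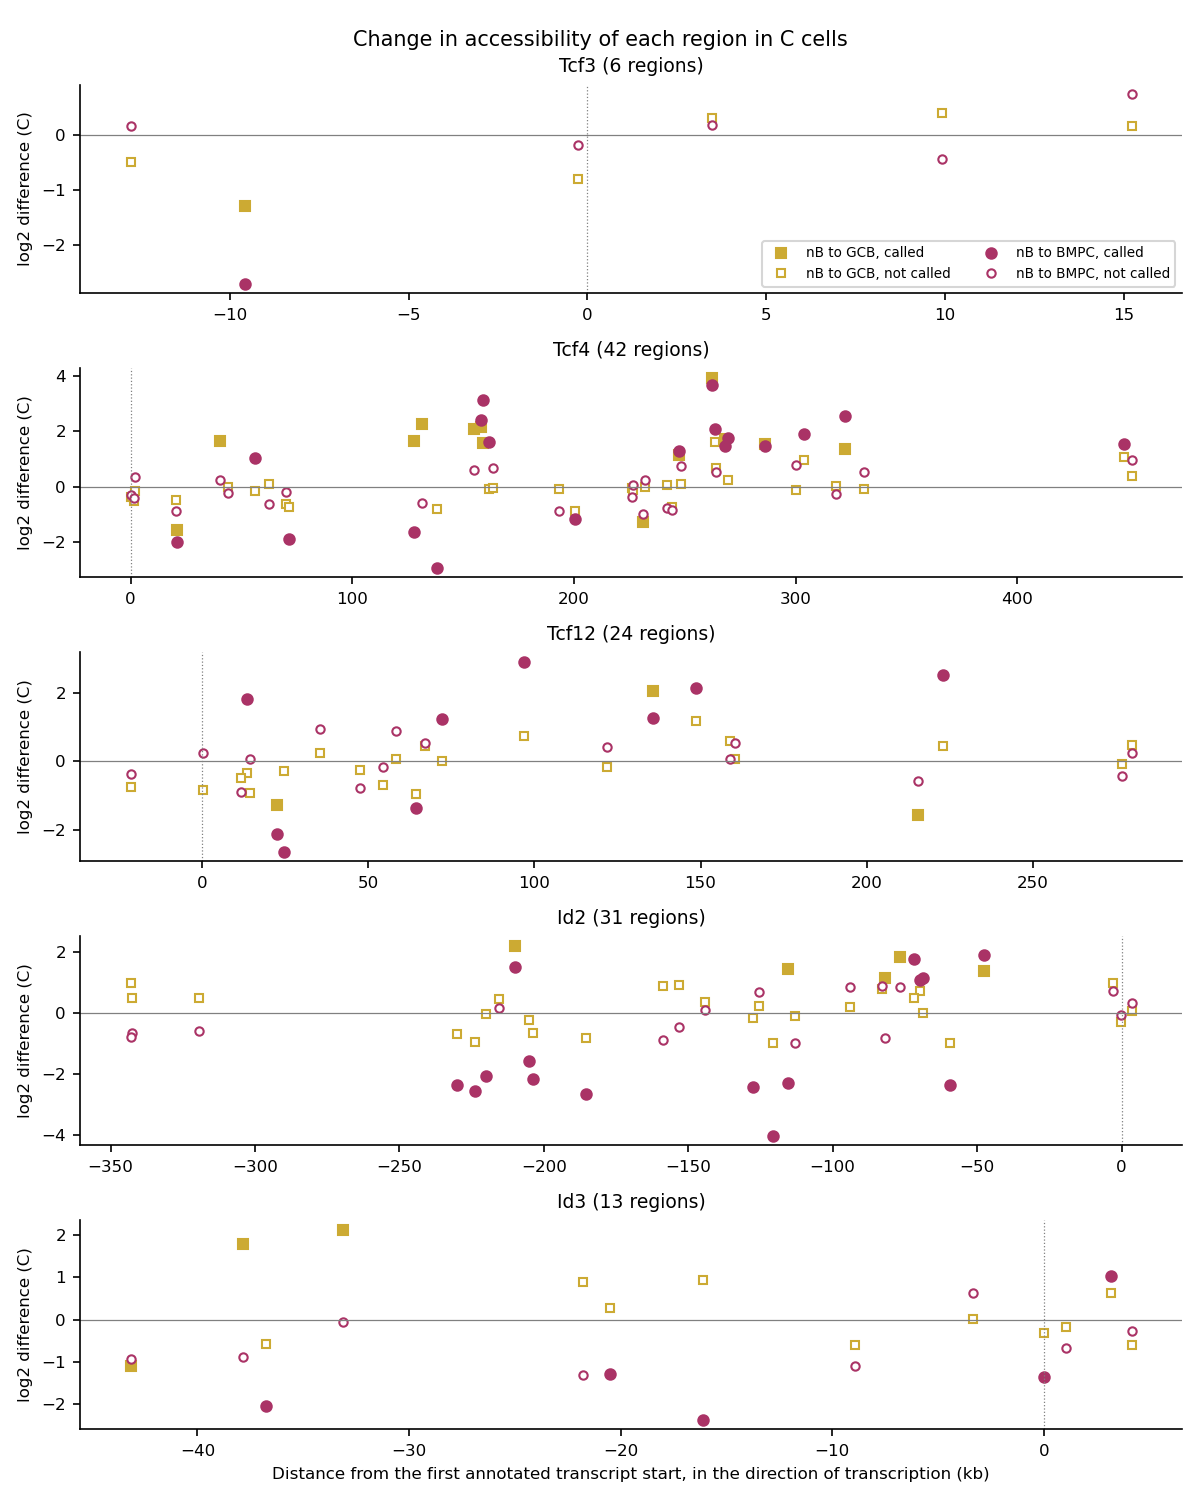
Log2 difference of every region (vertical axis) from nB to GCB (squares) and from nB to BMPC (circles) in C cells, by its distance in kb from the first annotated transcript start in the direction of transcription (horizontal axis), with filled symbols for called regions. Called falls in BMPC lie upstream of Id2 and Id3, with the largest, -4.01, about 120 kb upstream of Id2, and the largest rise at Tcf4 is 3.92.

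Id2, the inhibitor best known from innate lymphoid cells, natural killer cells and dendritic cells, had 30 of its 31 regions outside genes, spread over 347 kb. Of these 31 regions, 20 (64.5%) were called in at least 1 comparison between C cell types, against 51.8% of all regions. Among these 20, the most common course, in 9 regions, was no called difference between nB and GCB with a lower level in BMPC than in both. By contrast the promoter region (chr12:25780556-25781508, promoter, 5′ UTR and exon) was called in no comparison. It held 49.7, 66.7 and 53.2 RPPM in C nB, 40.5 and 52.5 in C GCB and 51.9, 53.6 and 57.8 in C BMPC, and the 3 cell types overlapped.

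The largest fall of any of the 116 regions on the log2(RPPM + 1) scale was at Id2, 120 kb upstream of its start (chr12:25901368-25902089). C nB libraries held 41.7, 34.5 and 29.2 RPPM, C GCB libraries 15.0 and 20.1, and C BMPC libraries 1.95, 1.09 and 0.779. No 2 cell types overlapped, and every BMPC library was below 2 RPPM. The region fell by 4.01 on the log2 scale from nB to BMPC (SE 0.22, limma adjusted p = 1.2e-14), a mean 27.6-fold lower, and by 3.05 from GCB to BMPC (SE 0.24, limma adjusted p = 6.0e-11). From nB to GCB the difference was -0.96 (SE 0.24, limma adjusted p = 0.0022) and under the limit of size. KO libraries held 33.4 and 32.3 RPPM in nB, 28.6, 18.5, 21.0 and 18.9 in GCB and 1.09 and 1.31 in BMPC, in the same order. By the ratio of means, the falls from C nB to C BMPC were larger at another Id2 region (chr12:25966273-25966723, 41.2-fold) and at a Tcf12 region (chr9:71934763-71935100, 28.8-fold).

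A neighbouring region 115 kb upstream (chr12:25896045-25896617) took another course between nB and GCB. It held 8.04, 7.16 and 4.84 RPPM in C nB, 18.9 and 20.1 in C GCB and 0.910, 0.365 and 0.467 in C BMPC. GCB was highest, BMPC lowest and nothing overlapped. It rose by 1.44 from nB to GCB (SE 0.28, limma adjusted p = 0.00017) and fell by 3.71 from GCB to BMPC (SE 0.28, limma adjusted p = 2.4e-11), a mean 33.6-fold lower. In KO cells the rise was 0.99 (SE 0.27) and not called, while the fall of 3.26 was (SE 0.27, limma adjusted p = 9.25e-11).

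Not every Id2 region closed in BMPC. The region 210 kb upstream (chr12:25990667-25991408) held 1.85 ± 1.18 RPPM (SD, n = 3) in C nB, 11.6 ± 2.12 (n = 2) in C GCB and 6.71 ± 1.07 (n = 3) in C BMPC and rose by 2.21 from nB to GCB (SE 0.29, limma adjusted p = 6.1e-07). The region 47.2 kb upstream (chr12:25828165-25828907) held 1.53 ± 0.613, 5.44 ± 0.400 and 8.36 ± 0.520 RPPM and rose by 1.91 from nB to BMPC (SE 0.28, limma adjusted p = 1.1e-06). The region 71.7 kb upstream (chr12:25852647-25853228) held 1.49 ± 0.384, 2.49 ± 0.210 and 7.58 ± 0.894 RPPM and was the 1 Id2 region that rose from GCB to BMPC, by 1.29 (SE 0.36, limma adjusted p = 0.0037). That call was lost in turn without C GCB replicate 1 (limma adjusted p = 0.020), C GCB replicate 2 (0.033), C BMPC replicate 1 (0.012) and C BMPC replicate 3 (0.016). Summed over all 31 regions, Id2 held 280 ± 15.4, 320 ± 6.55 and 250 ± 16.8 RPPM in the C cell types.

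Id3, an inhibitor of E proteins in lymphocytes whose human counterpart is often mutated in Burkitt lymphoma, was the 1 gene of the 5 with a promoter region called lower in BMPC than in nB or GCB. The promoter region (chr4:135699426-135700041, promoter, 5′ UTR and exon) held 51.4, 48.6 and 47.6 RPPM in C nB, 34.7 and 45.0 in C GCB and 19.6, 16.6 and 19.5 in C BMPC. The BMPC libraries were below all nB and GCB libraries. The region fell by 1.36 from nB to BMPC (SE 0.14, limma adjusted p = 5.7e-09) and by 1.05 from GCB to BMPC (SE 0.16, limma adjusted p = 4.3e-06), and the second difference was -0.87 without C GCB replicate 2 and -0.98 without C BMPC replicate 2, under the limit of size. KO libraries held 57.2 and 54.5 RPPM in nB, 30.3 to 37.4 in GCB and 13.7 and 20.7 in BMPC.

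The region 15.7 kb upstream of Id3 (chr4:135683250-135684033) had the largest falls in BMPC at this gene on the log2(RPPM + 1) scale. It held 17.1, 18.1 and 17.1 RPPM in C nB, 33.9 and 35.1 in C GCB and 2.21, 2.92 and 2.65 in C BMPC. The 3 cell types were far apart, with GCB highest. From GCB to BMPC it fell by 3.31 (SE 0.23, limma adjusted p = 2.7e-12), a mean 13.3-fold lower, and from nB to BMPC by 2.36 (SE 0.20, limma adjusted p = 9.1e-11). The difference from nB to GCB was 0.95 (SE 0.23, limma adjusted p = 0.0013), just under the limit of size. KO libraries held 16.3 and 15.2 RPPM in nB, 27.5, 25.5, 38.6 and 34.3 in GCB and 2.79 and 1.31 in BMPC.

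Of the other Id3 regions, a short one 33.1 kb upstream (chr4:135666507-135666684) was open mainly in GCB, at 0.413 ± 0.200 RPPM (SD, n = 3) in C nB, 5.19 ± 1.37 (n = 2) in C GCB and 0.355 ± 0.235 (n = 3) in C BMPC, and it rose by 2.12 from nB to GCB (SE 0.37, limma adjusted p = 3.7e-05) and fell by 2.19 from GCB to BMPC (SE 0.37, limma adjusted p = 1.6e-05). The C nB libraries held only 2, 3 and 1 reads there and the C BMPC libraries 2, 1 and 4. The region 42.7 kb upstream (chr4:135656141-135657006) held 13.9 ± 1.40, 6.29 ± 2.93 and 6.74 ± 0.632 RPPM and fell by 1.09 from nB to GCB (SE 0.27, limma adjusted p = 0.0020). That call was lost without C nB replicate 2 (limma adjusted p = 0.011) and without C GCB replicate 2 (0.11). Downstream of the gene, chr4:135702706-135703152 held 3.86 ± 1.05, 6.37 ± 0.925 and 9.0 ± 2.44 RPPM and was the 1 Id3 region that rose from nB to BMPC, by 1.03 (SE 0.26, limma adjusted p = 0.0013). Without C nB replicate 3 (0.86), C BMPC replicate 2 (0.96) or C BMPC replicate 3 (0.89) this difference was not called. The Id3 region with the highest signal lay 3.78 kb past the start (chr4:135703518-135704298), at 52.3 ± 2.12, 34.4 ± 6.34 and 43.1 ± 0.754 RPPM, and was not called. Summed over all 13 regions, Id3 held 178 ± 5.88, 173 ± 8.34 and 108 ± 3.14 RPPM in the C cell types, with BMPC below all other libraries.

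**Figure D4:**
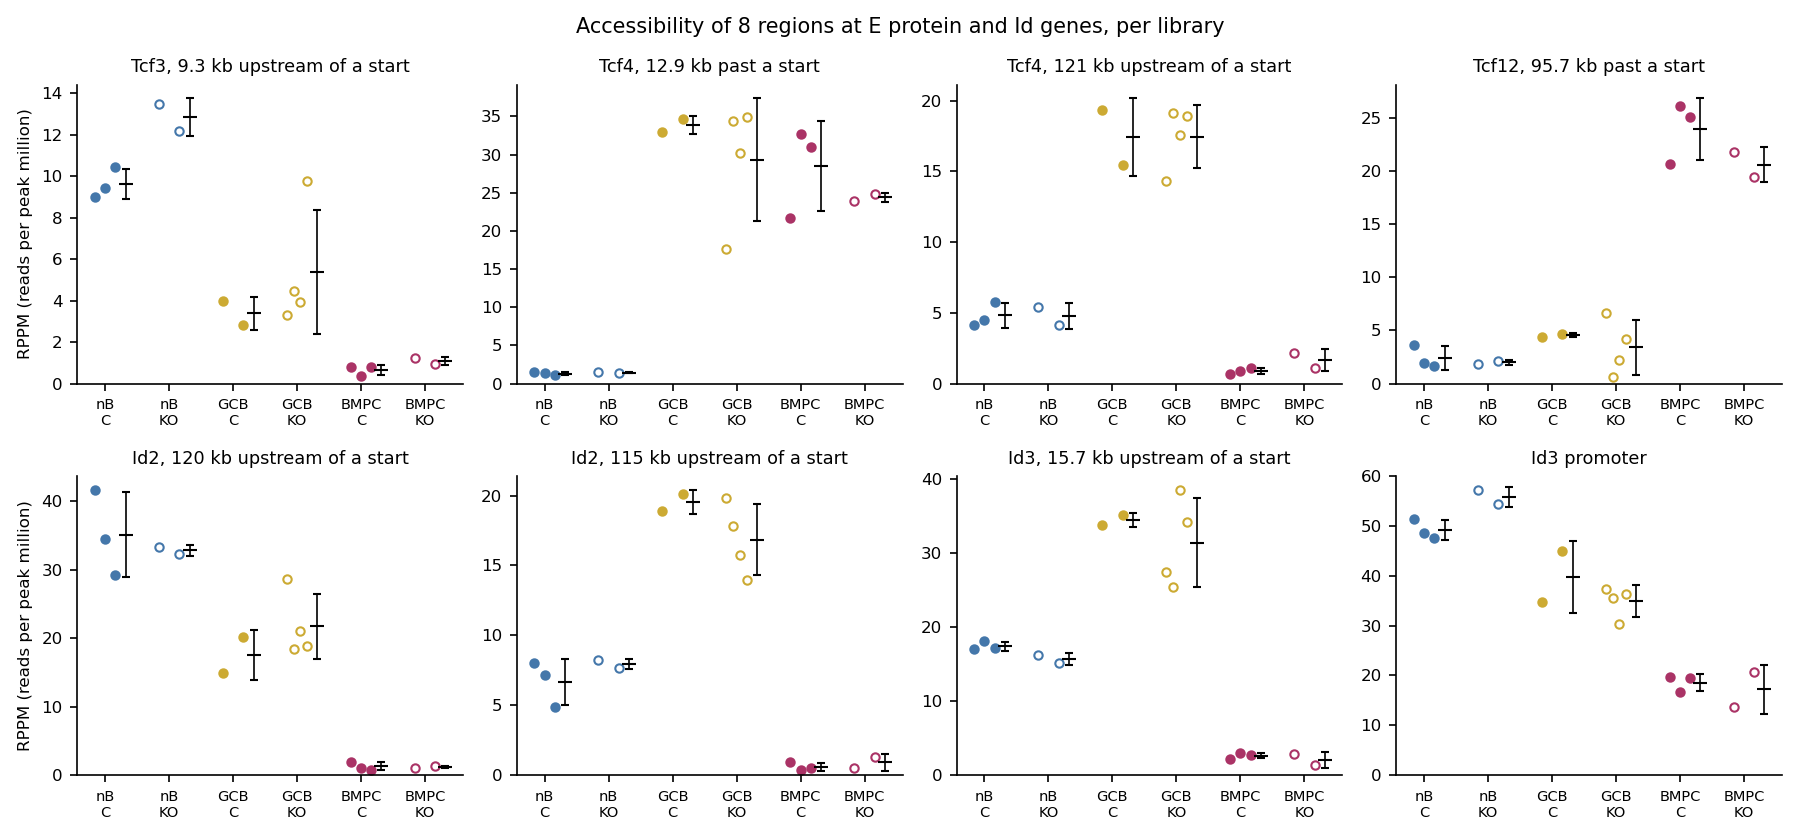
RPPM (vertical axes, from 0, each on its own scale) in every library of 8 regions described in the text, with C libraries as filled and KO libraries as open circles and the mean and SD of each group as black bars. The Tcf4 intronic region 12.9 kb from the start is above 15 RPPM in all GCB and BMPC libraries and below 2 in all nB libraries, and the Id2 region 120 kb upstream is below 2 RPPM in all BMPC libraries.

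The KO libraries, which share no library with the C comparisons, gave counts of the same order. From KO nB to KO GCB, 22 regions were higher and 5 lower, against 18.4% and 7.84% of all regions. From KO nB to KO BMPC, 27 were higher and 22 lower, against 18.4% and 16.9%, and from KO GCB to KO BMPC 11 were higher and 26 lower, against 12.1% and 19.9%. Of the lower regions in the last comparison, 20 were at Id2 and Id3. The regions called in the same direction in both genotypes numbered 19 from nB to GCB (76% of the C calls and 70.4% of the KO calls), 42 from nB to BMPC (87.5% and 85.7%) and 31 from GCB to BMPC (79.5% and 83.8%), and 0 were called in opposite directions. The same shares were not computed over all regions, so this agreement is not shown to be particular to the 5 genes. The other calls were made in 1 genotype, which does not show that the genotypes differ there.

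Genotype itself was compared within each cell type. No region of the 5 genes was called between KO and C in nB, GCB or BMPC with limma, against 0%, 0.0317% and 0.104% of all regions. At an unadjusted p under 0.05, 1 of the 116 was higher and 1 lower in KO nB, against 0.63% and 1.04% of all regions. In KO GCB these counts were 9 and 2, against 7.45% and 4.34%, and in KO BMPC 10 and 1, against 6.96% and 2.59%, so that the excess of higher over lower regions was also present over all regions. The tests of whether the genotype difference changed between nB and BMPC or between GCB and BMPC (interaction terms) also called 0 of the 116 regions, against 0% of all regions in each case. At an unadjusted p under 0.05, 7 were higher and 1 lower for nB, against 3.95% and 1.3% of all regions, and 6 and 1 for GCB, against 4.63% and 3.7%. The smallest adjusted p of the 116 regions was 1 in nB, 0.20 in GCB and 0.021 in BMPC.

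The region behind the last value was an intronic one at Tcf4, 69.2 kb past a start (chr18:69575086-69575784). It held 3.25, 1.82 and 1.40 RPPM in C BMPC and 7.41 and 6.16 in KO BMPC. The KO libraries were both above the 3 C libraries, with a difference of 1.34 (log2, SE 0.28, limma adjusted p = 0.021). The region was picked for its small p, so this separation follows in part from the pick. In nB the genotypes lay together at 10.2 to 10.5 RPPM in C and 10.0 and 11.0 in KO libraries, and in GCB at 6.60 and 5.15 RPPM in C and 6.14 to 10.8 in KO libraries. From nB to BMPC the region fell by 1.89 in C cells (SE 0.25, limma adjusted p = 3.2e-07), and in KO cells the difference was -0.57 (SE 0.31, limma adjusted p = 0.13). These 2 results do not show that the fall differs between genotypes. The interaction term, which tests this, was called at no Tcf4 region (smallest limma adjusted p = 0.51). The fall of 1.16 from C GCB to C BMPC was lost without C GCB replicate 1 (limma adjusted p = 0.025), without C BMPC replicate 3 (-0.98) and with quantile normalization (-0.82).

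This region was the 1 member called between KO and C BMPC with an adjusted p limit of 0.05 in limma, against 0.607% of all regions, and with DESeq2 on the recovered reads, against 0.746%. It was also called by limma without C BMPC replicate 1 (1.57, adjusted p = 0.0082). The edgeR quasi-likelihood test called it and 1 more region, against 1.81% of all regions, and the edgeR likelihood ratio test called the same 2, against 2.53%. The second region (chr18:69952173-69952722) lay outside genes, 132 kb upstream of the start it is assigned to by distance, that of another gene. It held 0 reads in all 5 nB libraries, 2.34, 1.46 and 2.02 RPPM in C BMPC and 9.47 and 5.41 in KO BMPC, a limma difference of 1.49 (SE 0.37, adjusted p = 0.054).

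Over the 42 Tcf4 regions, the log2 difference between KO and C BMPC was above 0 in 31, with a median of 0.34, against a median of 0.03 over all regions. With TMM scaling it was above 0 in 29 of 42 with a median of 0.30, and with quantile normalization in 30 with a median of 0.24. In GCB it was above 0 in 28 of 42 with a median of 0.23, and in nB in 25 with a median of 0.04. The summed Tcf4 signal was 523.6 to 564 RPPM in the C and 603 and 608 in the KO BMPC libraries, which did not overlap. For the other genes the median in BMPC was 0.06 at Tcf3, 0.05 at Tcf12, -0.03 at Id2 and 0.03 at Id3. These regions share libraries and a locus, and the medians are descriptions without a test.

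**Figure D5:**
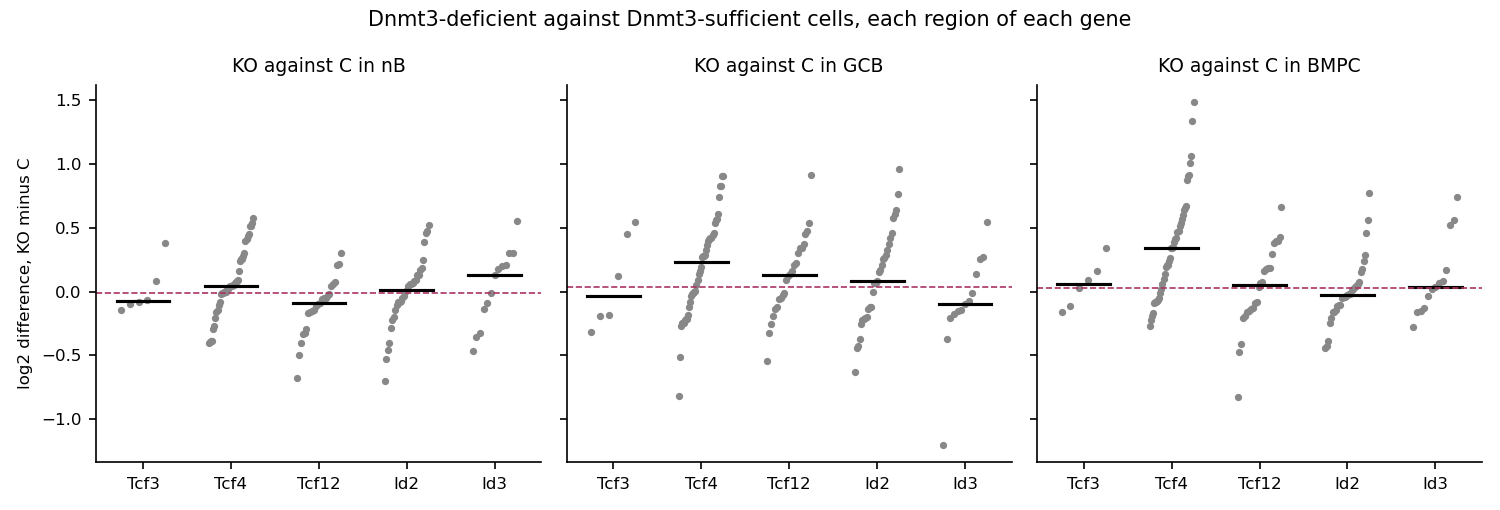
Log2 difference between KO and C (vertical axis) of each region of the 5 genes in nB, GCB and BMPC, sorted within a gene, with the median of each gene as a black bar and the median of all regions as a dashed line. In BMPC the Tcf4 median of 0.34 is above the dashed line, and the Id2 and Id3 medians of -0.03 and 0.03 lie near it.

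In GCB the smallest genotype p was at the Tcf3 promoter region, with 58.1 and 65.6 RPPM in C and 56.2, 49.6, 48.2 and 44.0 in KO libraries and a difference of -0.32 (SE 0.10, limma adjusted p = 0.20). In nB it was at the Tcf4 promoter region 1.31 kb before the start, with 8.53, 13.4 and 11.7 RPPM in C and 13.8 and 16.3 in KO libraries and a difference of 0.41 (limma adjusted p = 1). The KO libraries were lower in the first case and higher in the second, without overlap in either.

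Other genes of the pathway were counted from 2 lists. Partners and other helix-loop-helix genes (Id1, Id4, Bhlha15, Bhlhe40, Bhlhe41, Msc, Tal1, Lyl1, Lmo2, Ldb1, Cbfa2t2, Cbfa2t3, Runx1t1, Ep300 and Crebbp) had 110 regions at 14 of 15 genes, with none at Runx1t1. Of these, 14 were higher and 11 lower from C nB to C GCB, 33 and 23 from C nB to C BMPC and 25 and 20 from C GCB to C BMPC. The shares were 12.7% and 10% in the first comparison (all regions 14.2% and 8.47%), 30% and 20.9% in the second (18% and 20.1%) and 22.7% and 18.2% in the last (11.3% and 19.1%). Id1, a further inhibitor, had its start region (chr2:152561692-152562287) at 6.86 ± 1.60 RPPM (SD, n = 3) in C nB, 24.5 ± 1.48 (n = 2) in C GCB and 11.5 ± 0.734 (n = 3) in C BMPC, a rise of 1.72 from nB to GCB (SE 0.21, limma adjusted p = 2.3e-07) and a fall of 1.03 from GCB to BMPC (SE 0.21, limma adjusted p = 0.00018). Bhlha15, which encodes the secretory cell factor Mist1, had its start region (chr5:144950390-144951576) at 16.2 ± 2.06, 26.9 ± 3.76 and 68.8 ± 3.41 RPPM, a rise of 2.02 from nB to BMPC (SE 0.14, limma adjusted p = 1.3e-12). The largest change of the list was at Bhlhe40, 50.0 kb upstream of its start (chr6:108660883-108661976), which fell by 3.60 from nB to BMPC, from 25.9 ± 2.70 to 1.21 ± 0.107 RPPM (SE 0.20, limma adjusted p = 2.3e-14).

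B lineage genes known as E protein targets (Ebf1, Pax5, Foxo1, Cd79a, Cd79b, Igll1, Vpreb1, Rag1, Rag2, Xbp1, Prdm1, Cxcr4 and Irf4) had 215 regions at 10 of 13 genes, with none at Rag1, Rag2 or Vpreb1. Of these, 23 were higher and 35 lower from C nB to C GCB, 45 and 68 from C nB to C BMPC and 36 and 44 from C GCB to C BMPC. The shares were 10.7% and 16.3% in the first comparison (all regions 14.2% and 8.47%), 20.9% and 31.6% in the second (18% and 20.1%) and 16.7% and 20.5% in the last (11.3% and 19.1%). The largest change in C cells was at a region 1.95 kb past the start of Xbp1, a factor of antibody secretion, which rose by 4.19 from nB to BMPC, from 2.00 ± 0.749 to 52.8 ± 7.29 RPPM (SE 0.24, limma adjusted p = 2.4e-14). No region of either list was called between KO and C in any cell type.

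The start regions of the 5 genes (for Tcf4 the internal one) were also set beside those of 10993 other genes, by Pearson's r over the 16 libraries on log2(RPPM + 1). The genes most like Tcf3 were Fam222a (r = 0.982), Hmg20b (0.98) and Top2a (0.979), those most like Tcf4 were Rapgef3 (0.964), Lgals1 (0.962) and Crabp2 (0.953), and those most like Tcf12 were Dynlrb1 (0.985), Lcmt2 (0.968) and Sqstm1 (0.963). For Id2 they were Rab5c (0.937), Calr3 (0.933) and Tpcn1 (0.928), and for Id3 Tmem108 (0.972), Myo1f (0.961) and Myo10 (0.961). All points share the 3 cell types and the depth of each library.

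Defining markers were read at the region within 1 kb of their start. The summed level of 4 of 4 B cell genes (Ms4a1, Cd22, Cr2 and Cd79a) was 168 to 191 RPPM in nB, 105 to 169 in GCB and 53.0 to 56.9 in BMPC. That of 4 of 4 germinal center genes (Bcl6, Fas, S1pr2 and Mki67) was 126 to 133, 99.97 to 128 and 147 to 157, so that their sum was not highest in GCB and did not set GCB apart. Of 5 plasma cell genes, 4 had a region, with sums of 154 to 175, 105 to 125 and 196 to 214 RPPM, and Sdc1 had none. Prdm1, Xbp1 and Tnfrsf17 were highest in C BMPC, and Tnfrsf17 stood at 20 RPPM there, 1.35 in C GCB and 0.392 in C nB. Irf4 went the other way, with 57.4 RPPM in C nB, 41.1 in C GCB and 44.1 in C BMPC. Id2 and Id3 are also used by T, natural killer and myeloid cells, and the study's stains were set to remove cells with CD11b, CD11c, CD90.2 or Ly6-G. None of 5 T cell genes had a region, 3 of 5 natural killer and innate lymphoid genes did (sums of 9.04 to 22.3 RPPM over all libraries) and so did 1 of 5 myeloid genes (Itgam, 0.56 to 5.31 RPPM, highest in nB). Of 5 erythroid genes, 3 had a region, with sums of 49.8 to 65.5 RPPM in nB, 41.9 to 57.9 in GCB and 68.2 to 78.8 in BMPC. The part of other cells in the differences between cell types was not tested.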

How the data were processed

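Per the labels and the study's methods, the authors aligned ATAC-seq reads to mm9, called peaks in each library with MACS2 and took the union of all peaks. The submitters' processing notes name Bowtie 1.1.1, MACS2 2.1.0.20140616, Picard 1.127 and edgeR 3.12.1, and the methods name other versions of the first 2. The deposited values are reads per 1000000 reads in peaks (an RPM unit), here called RPPM, and 100% of them were whole multiples of 1 read, so that reads could be recovered. Any shift of reads for Tn5 is not given in the sources used here. Of 17 samples, 16 have values. The authors left 1 sample out for its share of reads in peaks, which the methods do not name, and 1 KO BMPC sample has no values here. Deposited columns of the authors' own comparisons (fold changes, test statistics and p-values) were not used.

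Values were tested with limma 3.58.1 (R 4.3.3) on log2(RPPM + 1), with a trend in the variance, 1 mean for each of 6 groups and no covariate, at a Benjamini-Hochberg adjusted p of at most 0.01 and a fold of at least 2, limits taken from the methods. The fits were tested on simulated data. Alternatives were an adjusted p limit of 0.05, pseudocounts of 0.1 and 5 RPPM, a mean of at least 1 RPPM, TMM and quantile scaling, fits of the compared groups only, edgeR 4.0.16 and DESeq2 1.42.0 on recovered reads, a replicate block and each library left out. Described in full were, per gene, the region nearest a start (of several over a start, the one with the highest mean), the called regions with the largest rise and fall in each comparison of C cells, the region with the highest mean, and the region with the smallest p between genotypes in each cell type. The sequences and the central windows were chosen after the values were seen. The members and lists were chosen with earlier results of these data known. Sequences were read from mm9 (NCBIM37), and 284 regions on unplaced sequence were not searched. Some genes of the lists, and 1 allele name, are not reported here, and those genes were left out of the counts and sums of their lists.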

Additional observations from a re-analysis of the deposited data

Results flagged for a closer look

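Of the 29 regions described in full, the 1 group of 4 libraries, KO GCB, was checked for a library far from the others. The internal Tcf4 start region (chr18:69751915-69753376) stood out, with 35.2 RPPM in replicate 1 against 51.6, 54.8 and 51.7 in the others. The gap of replicate 1 to its nearest neighbour was 0.834 of the range of the group, just above the 95% critical value of Dixon's test for 4 samples. Replicate 1 is the library with the fewest reads of the series, 907959, and the part of depth in the value was not tested. About 1 in 20 groups would be marked by chance, so that among 29 regions 1 is no more than that rate gives.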

How the results depend on the processing

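With a pseudocount of 5 RPPM, which shrinks differences at low levels, the counts of called regions fell from 25 to 8 (C nB to C GCB), 48 to 25 (C nB to C BMPC), 39 to 14 (C GCB to C BMPC), 27 to 11, 49 to 25 and 37 to 11 (the same in KO cells). Calls over all 66177 regions fell as well. With this pseudocount, the higher and lower ones in C cells numbered 4324 and 2488, 5673 and 6614, and 4009 and 6071, in the same order. In KO cells they numbered 4643 and 2366, 6497 and 6260, and 4081 and 6019. Of the other alternatives, none moved the 6 counts of member regions by over 1.5 times. Between KO and C BMPC, the count of 0 became 1 with an adjusted p limit of 0.05, 2 with the edgeR quasi-likelihood test, 2 with the edgeR likelihood ratio test and 1 with DESeq2. With each library left out in turn, the counts were 20 to 27, 45 to 50 and 32 to 41 in C cells and 18 to 30, 35 to 51 and 26 to 39 in KO cells, and 0 to 1 between KO and C BMPC (1 without C BMPC replicate 1). In the other genotype comparisons and the interactions they stayed at 0.

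For the 50 results on single regions, 1301 values under alternatives were computed. In 1250 the direction and the call were as reported, in 46 the call was lost, in 5 it was gained and in 0 the direction turned. Of 47 called results, 21 were lost with a pseudocount of 5 RPPM, 3 with quantile normalization and 10 without some single library.

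Pools called F2 and M1 are found among the C as well as the KO GCB libraries. With them as a replicate block, 0 member regions and 8 of all regions were called between KO and C, against 21 of all regions without it. Deviations of pools of the same name correlated at 0.036 and 0.064. The deviations of the C libraries mirror each other, so these values cannot show whether the names pair the samples. The GCB libraries were the shallowest, which limits what can be seen at regions of a few RPPM.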
